A study of Mus musculus with 12 samples.

Results

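The 10 genes Adm, Calcrl, Ramp1, Ramp2, Edn1, Ednra, F2rl1, Trpv2, Trpv3 and Trpv4, of blood vessel tone, protease sensing and thermal sensing, were followed in whole back skin of BALB/c mice. They were taken by gene symbol, through the Ensembl identifier of each row of the deposited read count table, and make up 10 of 52636 genes. All 10 were found, and all 10 were among the 17993 genes that passed the filter on low counts. The 12 libraries of the series fell into 4 groups of 3 female mice. Control mice received vehicle, and LL37 mice received the human cathelicidin peptide LL37 by intradermal injection into the back over 2 days, which gives a rosacea-like redness and swelling. The control+RAPA and LL37+RAPA mice were also given rapamycin (RAPA), which inhibits mTORC1, a growth-controlling kinase complex, and which the study's methods describe for BALB/c mice as intraperitoneal injection of 4 mg/kg per day. All mice were wild type and 6 to 8 weeks old, 8 weeks at the start of the injection model. The study describes the samples of each group as biologically independent.

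The 10 genes belong to systems that rosacea research has long linked to flushing, stinging and redness. Adrenomedullin (Adm) is a peptide that widens vessels and tightens the lymphatic and blood endothelial barrier. It acts through the calcitonin receptor-like receptor (Calcrl), whose ligand is set by a partner protein: with Ramp1 the pair binds calcitonin gene-related peptide, and with Ramp2 or Ramp3 it binds adrenomedullin. Endothelin 1 (Edn1) is a strong constrictor released by endothelium and keratinocytes, and the endothelin receptor type A (Ednra) receives it on smooth muscle and on fibroblasts. F2rl1 encodes proteinase-activated receptor 2 (PAR2), which is switched on when a serine protease such as a kallikrein or mast cell tryptase cuts its outer end. Trpv2, Trpv3 and Trpv4 encode cation channels: TRPV2 is abundant in macrophages, and TRPV3 and TRPV4 are warmth-sensitive channels of keratinocytes.

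Libraries held 15734559 to 23271784 assigned reads, and each of the 10 genes had between 43 and 1053 reads in every library. Levels are given as CPM, read counts scaled to a common library size by the trimmed-mean (TMM) method, on which 3 reads correspond to 0.123 to 0.184 CPM, and every ± is the SD over 3 libraries. The LL37 libraries were not alike. On the first principal component, which held 68.3% of the variance, LL37 replicate 3 lay at 64.4 and LL37 replicates 1 and 2 at 133 and 129, while control libraries lay between -62.6 and -50.2. Calls of the 10 genes that change without LL37 replicate 3 are given both ways. In bulk skin, fewer cells of a type and less RNA per cell cannot be told apart.

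Promoter sequence is shown for Adm and Edn1 because Adm is a textbook target of the hypoxia-inducible factors and, among the 8 genes with a record in the RefSeq promoter table (GRCm38.p6), only Adm and Trpv3 held the core letters of their binding motif. The motif was searched as ACGTG and as GCGTG, on both strands, in the 250 bases before the RefSeq start of each gene. Of all 32851 promoters of that length 16.6% held ACGTG, 28.2% held GCGTG, 38.6% held either and 16.7% held 2 or more matches. The windows lie at chr7:110627407-110627656 (Adm) and chr13:42301226-42301475 (Edn1), both on the plus strand, and capitals mark the motif letters, which read CACGT or CACGC where the match is on the minus strand.
Adm: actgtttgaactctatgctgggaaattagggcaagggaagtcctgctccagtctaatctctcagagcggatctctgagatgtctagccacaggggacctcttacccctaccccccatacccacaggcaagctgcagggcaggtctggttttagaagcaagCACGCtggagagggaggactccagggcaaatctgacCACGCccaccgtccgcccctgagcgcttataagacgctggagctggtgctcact
Edn1: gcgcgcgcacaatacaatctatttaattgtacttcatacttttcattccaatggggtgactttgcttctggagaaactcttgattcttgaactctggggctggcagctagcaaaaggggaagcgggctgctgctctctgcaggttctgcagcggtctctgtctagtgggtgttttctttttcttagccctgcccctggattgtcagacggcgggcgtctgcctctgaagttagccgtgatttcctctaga
The Adm window held 2 matches to GCGTG, both on the minus strand, at 90 to 86 and at 54 to 50 bases before the RefSeq start. The Trpv3 window held ACGTG on both strands of a single overlapping run (66 to 62 and 67 to 63 bases before that start) and GCGTG at 76 to 72 bases. The RefSeq start of Trpv3 lies 132 bases inside the gene as GENCODE places it, so all 3 matches lie within that gene and none before its start. The Edn1 window, shown for comparison as the other peptide, held neither motif, nor did those of Calcrl, Ramp1, Ednra, Trpv2 or Trpv4. Of these windows, 145 bases for Calcrl and 12 for Ednra lie inside the GENCODE gene. Trpv2 has 3 RefSeq records, and 27 bases of the window of record 2 and all 250 of that of record 3 lie inside its gene. A match here is a run of letters and not a bound site.

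LL37 injection raised the vessel-widening peptide Adm 2.87-fold, the endothelin receptor Ednra 1.45-fold and the channel Trpv2 2.40-fold, and it lowered Ramp1 6.80-fold, Edn1 2.49-fold, Ramp2 1.63-fold and Calcrl 1.57-fold. The constrictor peptide, the receptor Calcrl and its partners Ramp1 and Ramp2 were thus lower, while adrenomedullin itself was higher. The remaining partner, Ramp3, was not called. F2rl1, Trpv3 and Trpv4 did not pass the test. In the edgeR quasi-likelihood test with Benjamini-Hochberg adjustment over all 17993 genes, 3 of the 10 were called higher and 4 lower at an adjusted p under 0.05, against 21.0% and 21.6% of all tested genes. With an added limit of an absolute log2 fold change above 1, which the study also used, 4 of the 10 passed (Adm, Ramp1, Edn1 and Trpv2), against 19.5% of all genes. In each of the 7 genes called, no LL37 library overlapped a control library. The share of all tested genes without such overlap was not counted, so this is not a trait of these genes. Without LL37 replicate 3 the same count of 7 was reached, and without LL37 replicate 1 Ramp2 was lost (log2 fold change -0.55, adjusted p = 0.0543).

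Between LL37 and LL37+RAPA skin the same edgeR test called 4 of the 10. Adm was 2.31-fold higher in LL37 skin, and Calcrl, Ramp2 and Edn1 were 1.59-fold, 1.68-fold and 1.99-fold lower. That is 1 gene higher and 3 lower, where 11.8% and 12.4% of all tested genes were called, and 1 of the 10 (Adm) passed the fold limit, against 10.1% of all genes. This comparison and the one against control share the 3 LL37 libraries. Its count changed with single libraries. Without LL37 replicate 3, 7 of the 10 were called, with Ramp1, F2rl1 and Trpv2 added (log2 fold changes of -1.24, -1.0 and 0.57). Without LL37 replicate 1 it was 1 (Edn1), and without LL37+RAPA replicate 3 it was 2 (Calcrl and Edn1). Calls over all genes moved the same way. With every library 2120 pointed up and 2239 down, and without LL37 replicate 3 these were 3200 and 3208. In total there were 4359 with every library, 2089 without LL37 replicate 1 and 2646 without LL37+RAPA replicate 3. The changes in count are thus not a trait of the 10.

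In LL37+RAPA skin against control, Ednra (1.70-fold) and Trpv2 (1.74-fold) were called higher and Ramp1 (3.79-fold) lower, with 5.03% of all genes called higher and 9.01% lower. Against control+RAPA skin the calls were again Ednra (1.76-fold) and Trpv2 (2.20-fold) higher and Ramp1 (2.80-fold) lower, with 8.2% and 10.4% of all genes called. Both comparisons share the 3 LL37+RAPA libraries. RAPA alone (control+RAPA against control) called none of the 10 and 0.0% of all genes in edgeR. At an unadjusted p under 0.05 it gave 1 of the 10 (Adm) and 1556 genes in all, and DESeq2 called 102 genes and none of the 10. The difference of differences, the LL37 change without RAPA minus that with RAPA, was called for 1 of the 10 (Adm) and for 3.28% of all genes. That count over all genes, 590, ran from 2 without LL37+RAPA replicate 1 to 3145 without LL37 replicate 3.

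**Figure D1:**
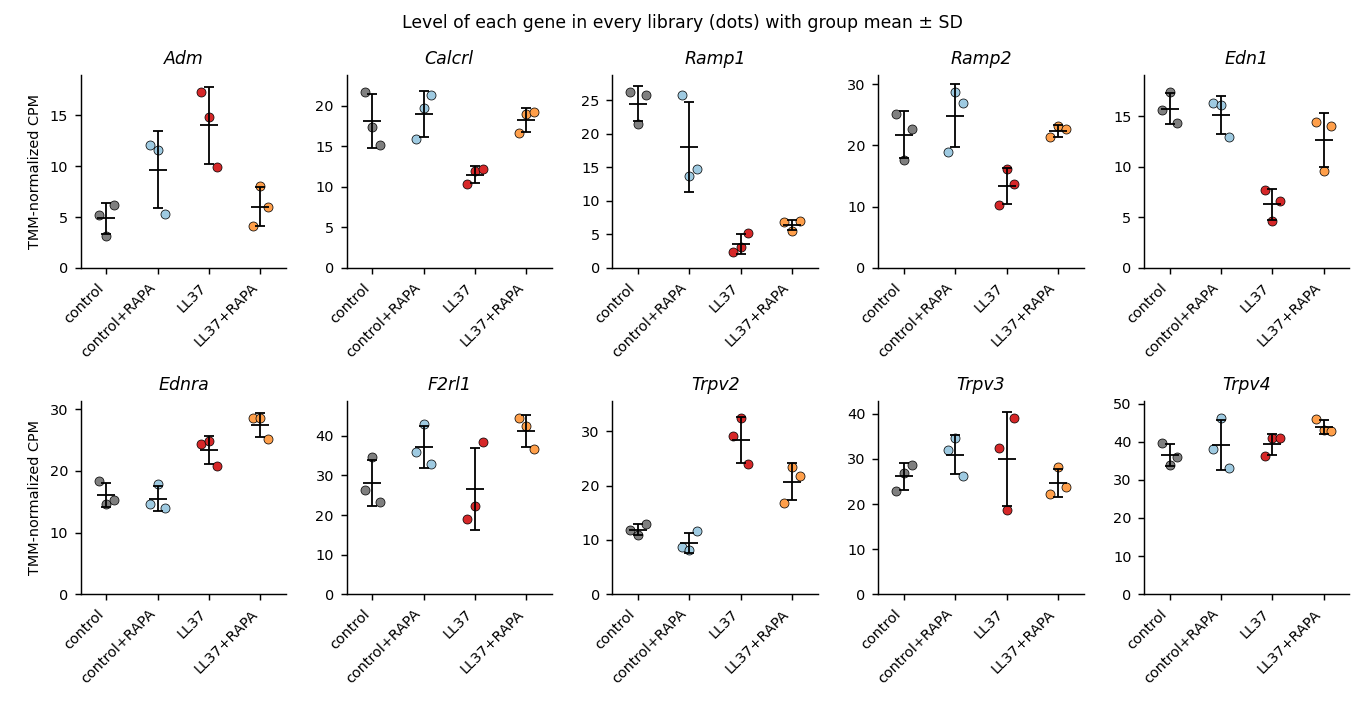
Each panel plots 1 gene, with TMM-normalized CPM on a linear axis from 0, a dot for each of the 12 libraries, and the group mean with SD. The LL37 dots of Ramp1 lie at or under 5.23 CPM and those of control at or above 21.5 CPM, while the LL37 dots of F2rl1 run from 19.0 to 38.5 CPM and span the control dots.

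**Figure D2:**
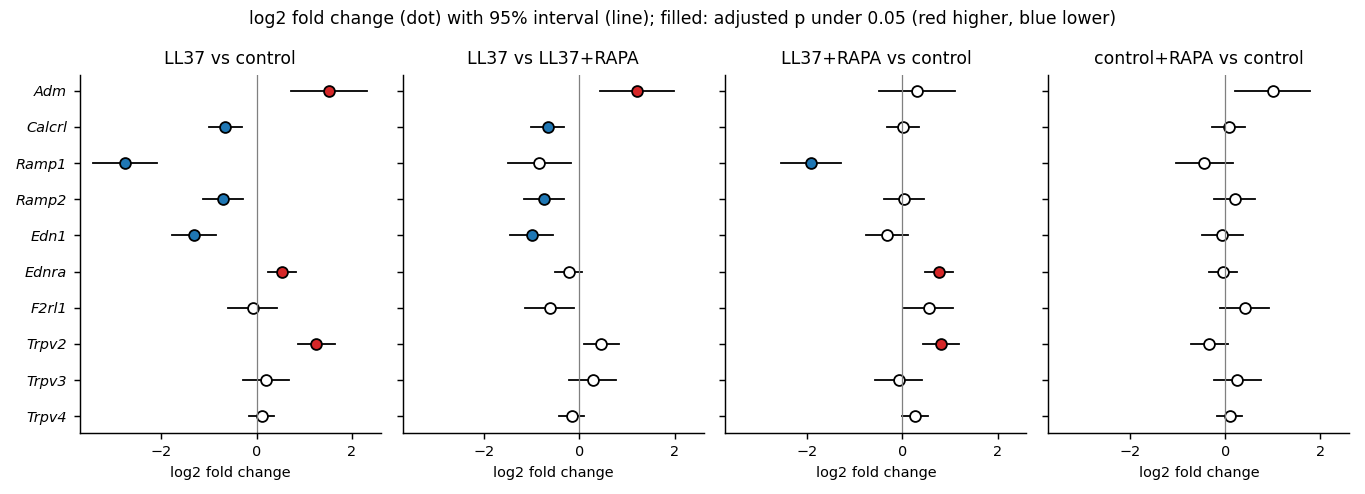
The log2 fold change of each gene (dot) with its 95% interval (line) in 4 comparisons, filled red or blue where the gene was called higher or lower. The 4 dots of Ramp1, Edn1, Ramp2 and Calcrl on the lower side and 3 on the higher side (Adm, Trpv2, Ednra) are filled in LL37 against control, and none is filled in control+RAPA against control.

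Adm (ENSMUSG00000030790, chr7:110627661-110629820, plus strand, GRCm38) was at 5.23, 3.18 and 6.22 CPM in the 3 control libraries and at 17.3, 14.9 and 9.89 CPM in the LL37 libraries. It was at 4.13, 8.02 and 5.95 CPM in LL37+RAPA skin and at 12.1, 11.6 and 5.35 CPM in control+RAPA skin. Every LL37 library lay above every control and LL37+RAPA library, but 2 of the control+RAPA libraries also lay above all control libraries. The log2 fold change was 1.52 (SE 0.364, adjusted p = 0.00584) in LL37 against control, and 1.21 (adjusted p = 0.0306) in LL37 against LL37+RAPA. The latter call was lost without LL37 replicate 1 (1.03, adjusted p = 0.114), LL37 replicate 2 (1.17, adjusted p = 0.0728), LL37+RAPA replicate 1 (1.0, adjusted p = 0.115) or LL37+RAPA replicate 3 (1.2, adjusted p = 0.0847). In control+RAPA against control Adm gave 1.0 (unadjusted p = 0.0186, adjusted p = 0.497). The LL37 change without RAPA exceeded that with RAPA by 2.20 on the log2 scale (SE 0.510, adjusted p = 0.0412), a call that was kept in 7 of 19 alternative settings. Adm overlaps the antisense gene Gm28863, with no exon bases shared.

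Edn1 (ENSMUSG00000021367, chr13:42301476-42307990, plus strand) moved the other way. Its level was 15.6, 17.4 and 14.3 CPM in control, 7.67, 4.66 and 6.64 CPM in LL37, 14.4, 9.62 and 14.0 CPM in LL37+RAPA and 16.3, 16.1 and 13.0 CPM in control+RAPA skin. The LL37 libraries lay below all 9 others. The fitted log2 change was -1.32 (SE 0.207, adjusted p = 0.000464) against control and -1.0 (SE 0.206, adjusted p = 0.00684) against LL37+RAPA, and both calls were kept under all 20 alternative settings. In LL37+RAPA against control the change was -0.32 (95% interval -0.76 to 0.11, adjusted p = 0.338). The interaction was -1.06 (adjusted p = 0.0642), and -1.09 (adjusted p = 0.0333) without LL37 replicate 3. Of the exon bases of Edn1, 35 are shared with the antisense gene Gm47118. Per kilobase of exon, the log2 ratio of Adm to Edn1 was -1.34 ± 0.642 in control, 1.54 ± 0.552 in LL37 and -0.70 ± 0.778 in LL37+RAPA skin. Adm was thus the lower of these peptides in every control library and the higher in every LL37 library (exact permutation test, two-sided, p = 0.1, which is the least that 3 against 3 libraries can give).

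Calcrl (ENSMUSG00000059588, chr2:84330626-84425411, minus strand), the receptor that both adrenomedullin and calcitonin gene-related peptide need, was at 21.7, 17.4 and 15.2 CPM in control and at 10.3, 12 and 12.2 CPM in LL37 skin. In LL37+RAPA skin it was at 16.6, 19.0 and 19.2 CPM, and in control+RAPA skin at 15.9, 19.8 and 21.4 CPM. The LL37 libraries lay below all others, and the remaining 3 groups overlapped. On the log2 scale the change was -0.65 (SE 0.158, adjusted p = 0.00609) against control and -0.67 (SE 0.157, adjusted p = 0.0119) against LL37+RAPA, the latter at -0.60 (adjusted p = 0.0537) without LL37 replicate 1. LL37+RAPA against control gave 0.015 (95% interval -0.32 to 0.35).

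Ramp1 (ENSMUSG00000034353, chr1:91179822-91225196, plus strand), the partner for calcitonin gene-related peptide, had the largest log2 fold change of the 10 in LL37 against control. It was at 26.2, 21.5 and 25.7 CPM in control, 2.34, 3.13 and 5.23 CPM in LL37, 6.78, 5.57 and 6.99 CPM in LL37+RAPA and 25.8, 13.7 and 14.7 CPM in control+RAPA skin. All 6 libraries of LL37-injected skin, with or without RAPA, lay below all 6 others. Its fitted change on the log2 scale was -2.77 (SE 0.305, adjusted p = 4.54e-05) in LL37 and -1.92 (SE 0.289, adjusted p = 0.00101) in LL37+RAPA skin against control. LL37 against LL37+RAPA gave -0.84 (adjusted p = 0.0626), with no overlap between libraries, and -1.24 (adjusted p = 0.00772) without LL37 replicate 3. The interaction was -1.28 (adjusted p = 0.101), and -1.68 (adjusted p = 0.0106) without LL37 replicate 3. Ramp1 moved with skeletal muscle genes: the summed level of a 20-gene muscle list was 39800 to 57600 CPM in control, 42400 to 74100 in control+RAPA, 3320 to 7140 in LL37+RAPA and 30.5, 35.0 and 877 in LL37 replicates 1, 2 and 3. The part of muscle RNA in the Ramp1 result was not tested.

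Ramp2 (ENSMUSG00000001240, chr11:101246028-101259546, plus strand), the partner for adrenomedullin, was at 25.1, 17.6 and 22.6 CPM in control and at 10.3, 16.1 and 13.7 CPM in LL37 skin. LL37+RAPA skin had 21.3, 23.1 and 22.7 CPM and control+RAPA skin 19.0, 28.7 and 26.9 CPM. The LL37 libraries again lay below all others. The log2 fold change was -0.71 (SE 0.196, adjusted p = 0.0130) against control and -0.74 (SE 0.196, adjusted p = 0.0193) against LL37+RAPA. The latter call was lost without LL37 replicate 1 (-0.59, adjusted p = 0.0790), LL37+RAPA replicate 2 (-0.72, adjusted p = 0.0507) or LL37+RAPA replicate 3 (-0.74, adjusted p = 0.0533). Of the 3301 exon bases of Ramp2, 1103 are shared with Vps25 on the same strand, so its reads may be split between them or left out and its level is uncertain.

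Among the 3 Ramp genes the mixture shifted in whole-skin RNA. These shares carry the limits given above: Ramp1 moved with skeletal muscle genes, and the level of Ramp2 is uncertain. Per kilobase of exon, Ramp1 made up 42.0, 41.5 and 41.3% of the summed Ramp level in control and 7.07, 7.07 and 16.4% in LL37 libraries. Ramp3, the other partner for adrenomedullin, made up 21.2 to 27.5% in control and 44.3 to 64.5% in LL37 libraries. Its own level was 6.59 CPM in control and 9.40 CPM in LL37 skin (log2 fold change 0.51, adjusted p = 0.104). The Ramp2 share was 33.7 ± 2.90% in control and 33.7 ± 5.4% in LL37 skin, and it was 47.7 ± 4.28% in LL37+RAPA skin. The Ramp1 and Ramp3 shares of control and LL37 libraries did not overlap (two-sided exact permutation test, p = 0.1 for each). The Ramp1 share in LL37+RAPA skin, 14.9 ± 0.991%, overlapped that in LL37 skin through LL37 replicate 3 (16.4%). In LL37 replicates 1 and 2 that share lay below all LL37+RAPA libraries.

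Ednra (ENSMUSG00000031616, chr8:77663031-77724464, minus strand) was at 18.3, 14.6 and 15.3 CPM in control and at 24.4, 24.9 and 20.8 CPM in LL37 skin. It was at 28.5, 28.5 and 25.2 CPM in LL37+RAPA and at 14.7, 17.8 and 14.0 CPM in control+RAPA skin. Both groups that received LL37 lay above both that did not, and the LL37+RAPA libraries lay above the LL37 libraries. The fitted log2 change was 0.54 (SE 0.132, adjusted p = 0.00644) for LL37 and 0.77 (SE 0.131, adjusted p = 0.00227) for LL37+RAPA against control. LL37 against LL37+RAPA gave -0.23 (95% interval -0.51 to 0.06, adjusted p = 0.219). Of its exon bases, 91 are shared with 4933431K23Rik on the other strand. The other endothelin receptor, Ednrb, which endothelium and melanocytes carry, was at 19.5 CPM in control and 52.5 CPM in LL37 skin (log2 fold change 1.43, adjusted p = 0.00498).

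F2rl1 (ENSMUSG00000021678, chr13:95511732-95525227, minus strand), the PAR2 gene, was at 26.2, 34.7 and 23.4 CPM in control and at 19.0, 22.3 and 38.5 CPM in LL37 skin. LL37+RAPA skin had 44.4, 42.4 and 36.8 CPM and control+RAPA skin 35.9, 43.0 and 32.8 CPM. LL37 replicate 3 stood above every control library and the other LL37 libraries below every control library, so the groups overlapped. On the log2 scale the change was -0.075 (95% interval -0.59 to 0.44, adjusted p = 0.823) against control. Against LL37+RAPA it was -0.63 (95% interval -1.14 to -0.11, adjusted p = 0.0736), and -1.0 (adjusted p = 0.00150) without LL37 replicate 3. All LL37+RAPA libraries lay above all control libraries, with a log2 fold change of 0.55 (unadjusted p = 0.0382, adjusted p = 0.154). That change was called without LL37 replicate 3, which is in neither group (0.58, adjusted p = 0.0222), and with the compared groups alone in the fit (0.55, adjusted p = 0.0381).

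Trpv2 (ENSMUSG00000018507, chr11:62574486-62600515, plus strand) was at 11.8, 11 and 12.9 CPM in control and at 29.1, 32.4 and 24.0 CPM in LL37 skin. LL37+RAPA libraries lay between, at 16.9, 23.5 and 21.8 CPM, and control+RAPA libraries at 8.68, 8.10 and 11.6 CPM. These LL37+RAPA values overlapped neither control nor LL37. Its fitted change on the log2 scale was 1.26 (SE 0.174, adjusted p = 0.000201) in LL37 and 0.80 (SE 0.173, adjusted p = 0.00919) in LL37+RAPA skin against control. LL37 against LL37+RAPA gave 0.46 (95% interval 0.09 to 0.83, adjusted p = 0.0694), and 0.57 (adjusted p = 0.0244) without LL37 replicate 3.

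The keratinocyte channels did not pass the test in any of the 6 comparisons. Trpv3 (ENSMUSG00000043029, chr11:73267388-73300363, plus strand) was at 22.8, 26.9 and 28.7 CPM in control, 32.4, 18.6 and 39.0 CPM in LL37, 22.3, 28.2 and 23.7 CPM in LL37+RAPA and 31.9, 34.7 and 26.2 CPM in control+RAPA skin. LL37 replicate 2 was the lowest and LL37 replicate 3 the highest of all 12 libraries. The log2 fold change against control was 0.20 (95% interval -0.29 to 0.69, adjusted p = 0.495), 0.49 (adjusted p = 0.0332) without LL37 replicate 2 and -0.0026 (adjusted p = 0.993) without LL37 replicate 3. Trpv4 (ENSMUSG00000014158, chr5:114622152-114658421, minus strand) was at 39.7, 34.0 and 36.0 CPM in control, 36.2, 40.9 and 41.0 CPM in LL37, 46.0, 43.1 and 42.7 CPM in LL37+RAPA and 38.0, 46.1 and 33.2 CPM in control+RAPA skin. Its log2 fold change against control was 0.11 (95% interval -0.16 to 0.37, adjusted p = 0.504). Among the 3 channels, Trpv2 made up 16.5 ± 0.696% of the level per kilobase in control and 30.2 ± 5.61% in LL37 skin, and Trpv4 55.7 ± 3.61% and 45.7 ± 3.31% (two-sided exact permutation test, p = 0.1 for each).

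**Figure D3:**
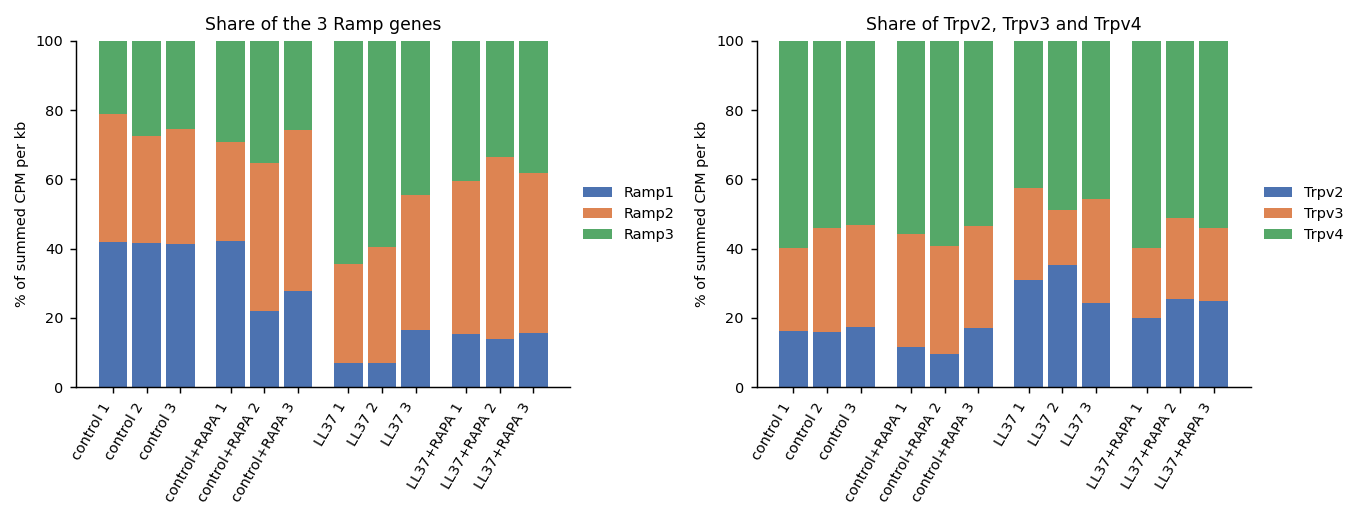
Stacked bars give, for each library, the percent of the summed CPM per kilobase of exon taken by Ramp1, Ramp2 and Ramp3 (left) and by Trpv2, Trpv3 and Trpv4 (right). The Ramp1 segment is 41.3 to 42.0% high in control and 7.07 to 16.4% high in LL37 libraries, and the Trpv2 segment reaches 35.4% in LL37 replicate 2.

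In control skin the 10 genes ranked, by CPM per kilobase of exon, as F2rl1 (10.3 ± 2.15), Trpv4 (8.97 ± 0.709), Ramp1 (8.10 ± 0.843), Edn1 (7.39 ± 0.728), Ramp2 (6.59 ± 1.15), Trpv3 (4.47 ± 0.519), Calcrl (3.71 ± 0.683), Adm (3.01 ± 0.957), Ednra (2.94 ± 0.355) and Trpv2 (2.65 ± 0.205). Of the 9 pairs of neighbours in this order, only Ramp2 and Trpv3 did not overlap between libraries. The ranges of the remaining neighbours overlapped, and neighbours were not compared within each library, so their order was not tested. The break between Ramp2 and Trpv3 rests on the level of Ramp2, which is uncertain because of the exon bases it shares with Vps25.

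Other genes of the vasoactive system changed in both directions. Of 44 listed genes (peptides, processing enzymes, receptors and the nitric oxide and cyclic GMP pathway, the 10 genes left out) 35 were tested, and 10 rose and 15 fell in LL37 against control, with a median log2 fold change of -0.54 (all tested genes: 3777 higher, 3891 lower, median -0.0049). Adm2, a close relative of adrenomedullin, rose from 0.139 ± 0.132 to 3.98 ± 0.168 CPM (log2 fold change 4.77, adjusted p = 0.000366). Apelin (Apln), a vessel-widening peptide, rose from 2.18 ± 0.587 to 36.8 ± 12.8 CPM (4.07, adjusted p = 7.25e-06), and natriuretic peptide B (Nppb) from 0.837 ± 0.476 to 12.7 ± 6.44 CPM (3.91, adjusted p = 0.000779). Among the nitric oxide synthases the inducible Nos2 rose from 1.49 ± 0.0994 to 34.1 ± 35.6 CPM (4.51, adjusted p = 0.000353), with LL37 libraries from 8.20 to 74.7 CPM. The neuronal Nos1, which skeletal muscle also carries, fell from 74.6 ± 18.6 to 0.225 ± 0.300 CPM (-8.20, adjusted p = 8.75e-07), with LL37 libraries from 0 to 0.565 CPM, alongside the muscle list described with Ramp1.

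Against LL37+RAPA, 4 of the 35 tested genes of the vasoactive list were higher in LL37 skin and 13 lower, with a median of -0.46, where 11.8% of all tested genes were higher and 12.4% lower (median -0.0042). The count of higher genes was thus near that of all genes. The peptides Adm2 (log2 fold change 3.5, adjusted p = 0.00359) and Nppb (3.01, adjusted p = 0.00653) and the synthase Nos2 (3.34, adjusted p = 0.00432) were higher. The natriuretic peptide clearance receptor Npr3 was lower, at 3.14 ± 0.978 CPM in LL37 and 23.7 ± 6.81 CPM in LL37+RAPA skin (-2.92, adjusted p = 0.00182), and Nos1 was lower as well (-3.07, adjusted p = 0.00479). The alpha gene of calcitonin gene-related peptide, Calca, averaged 0.0693 CPM in control and 0.304 CPM in LL37 skin, and was under the filter on low counts. Its beta gene, Calcb, averaged 14.8 CPM in control, 8.22 CPM in LL37 (5.02 to 13.1) and 14.4 CPM in LL37+RAPA skin. Calcb was called lower in LL37 against control (log2 fold change -0.84, adjusted p = 0.0317) but not against LL37+RAPA (-0.80, adjusted p = 0.0579). The neuropeptide genes Vip and Adcyap1 were at 0 in every control and LL37 library, which allows up to the 0.141 to 0.184 CPM that 3 reads make in those libraries. The count of calls of the vasoactive list in LL37 against LL37+RAPA was 17, and 10 without LL37 replicate 1.

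Around PAR2, more genes were called higher than lower. Of 29 listed genes (the other proteinase-activated receptors, activating proteases, inhibitors and arrestins) 27 were tested, with 11 higher and 1 lower in LL37 against control (median 0.41) and 6 higher and 1 lower in LL37 against LL37+RAPA (median 0.16). Over all tested genes 21.0% were higher and 21.6% lower against control, and 11.8% and 12.4% against LL37+RAPA, with medians of -0.0049 and -0.0042. Kallikrein 6 (Klk6) rose from 21.6 ± 20.5 to 252 ± 76.5 CPM (log2 fold change 3.54, adjusted p = 0.000902) and was at 25.4 ± 16.1 CPM in LL37+RAPA skin (3.31, adjusted p = 0.00424). Cathepsin S (Ctss), a protease of antigen-presenting cells, rose from 109 ± 35.2 to 384 ± 52.9 CPM (1.82, adjusted p = 0.000769) and differed from LL37+RAPA by 1.04 (adjusted p = 0.03). The receptor F2rl2 (1.92, adjusted p = 0.00623) and coagulation factor X (F10, 2.35, adjusted p = 0.00411) rose against control. In LL37 against LL37+RAPA the kallikreins Klk7 (0.87, adjusted p = 0.0108) and Klk8 (1.03, adjusted p = 0.0153) and the endothelial protein C receptor Procr (1.84, adjusted p = 0.00192) were higher. The 7 calls of that comparison became 3 without LL37 replicate 1 and 4 without LL37+RAPA replicate 1 or 3.

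In the TRP channel family beyond the 3 genes above, 17 of 25 listed genes were tested, with 2 higher and 5 lower in LL37 against control (median -0.32) and 2 higher and 4 lower against LL37+RAPA (median -0.43). Beside the 21.0% higher and 21.6% lower of all tested genes in the former comparison, and 11.8% and 12.4% in the latter, the 2 genes higher against LL37+RAPA were near the share of all genes. Both that rose are channels of immune cells: Trpm2, from 1.02 ± 0.580 to 32.0 ± 23.8 CPM (log2 fold change 4.96, adjusted p = 0.000493), and Mcoln2, from 4.57 ± 0.947 to 37.7 ± 24.8 CPM (3.04, adjusted p = 0.000889). Their lowest LL37 values, 5.23 and 9.04 CPM, were far under the highest, 50.9 and 52.8 CPM. The calcium channel Trpv6 (-0.88, adjusted p = 0.00488) and Mcoln3 (-0.98, adjusted p = 0.0359) fell against control. In LL37 against LL37+RAPA, Trpm2 (2.99, adjusted p = 0.0101) and Mcoln2 (1.97, adjusted p = 0.0164) were higher, and Trpc4 (-2.53, adjusted p = 0.0182), Trpv6 (-0.71, adjusted p = 0.0281) and Pkd2 (-0.43, adjusted p = 0.0312) were lower. The 6 calls of that comparison became 1 without LL37 replicate 1, 3 without LL37 replicate 2 and 2 without LL37+RAPA replicate 1. Trpv1, the capsaicin receptor of sensory neurons, was at 1.18 CPM in control and 0.414 CPM in LL37 skin (-1.44, adjusted p = 0.110). Trpa1 was at 0 in every control and LL37 library, and Trpc2 and Trpc7 were at 0 in all 12.

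Of 24 genes of the hypoxia response, a list that includes targets of the same factors as Adm, 16 were called higher in LL37 against control and 20 in LL37 against LL37+RAPA. All 24 were tested, with 1 lower against control (median 0.74, where 21.0% of all tested genes were higher) and none lower against LL37+RAPA (median 1.06, where 11.8% were higher). LL37+RAPA skin did not match control skin: 2 of the 24 were higher in it than in control and 6 lower (median -0.105). Of all tested genes, 5.03% were higher and 9.01% lower there. Carbonic anhydrase 9 (Car9) rose from 2.14 ± 0.539 to between 18.9 and 20.8 CPM (log2 fold change 3.22, adjusted p = 1.38e-06) and was at 3.93 ± 0.776 CPM in LL37+RAPA skin (2.34, adjusted p = 0.000332). The glucose transporter Slc2a1 (2.26 against control and 1.99 against LL37+RAPA), the oxygen-sensing enzyme Egln3 (1.90 and 1.82) and the oxidase Ero1l (2.44 and 1.96) were called in both. Vegfa, the vascular growth factor, was 1.52 higher on the log2 scale than in LL37+RAPA skin (adjusted p = 0.00152). The glycogen branching enzyme Gbe1 fell against control (-1.91, adjusted p = 2.8e-05). The 7 genes not called against control included Ldha (-0.15), Hk2 (-0.32), Pdk1 (-0.063) and Ddit4 (-0.089), whose values pointed down. Ddit4 was also at -0.14 against LL37+RAPA, where 4 of the 24 were not called.

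**Figure D4:**
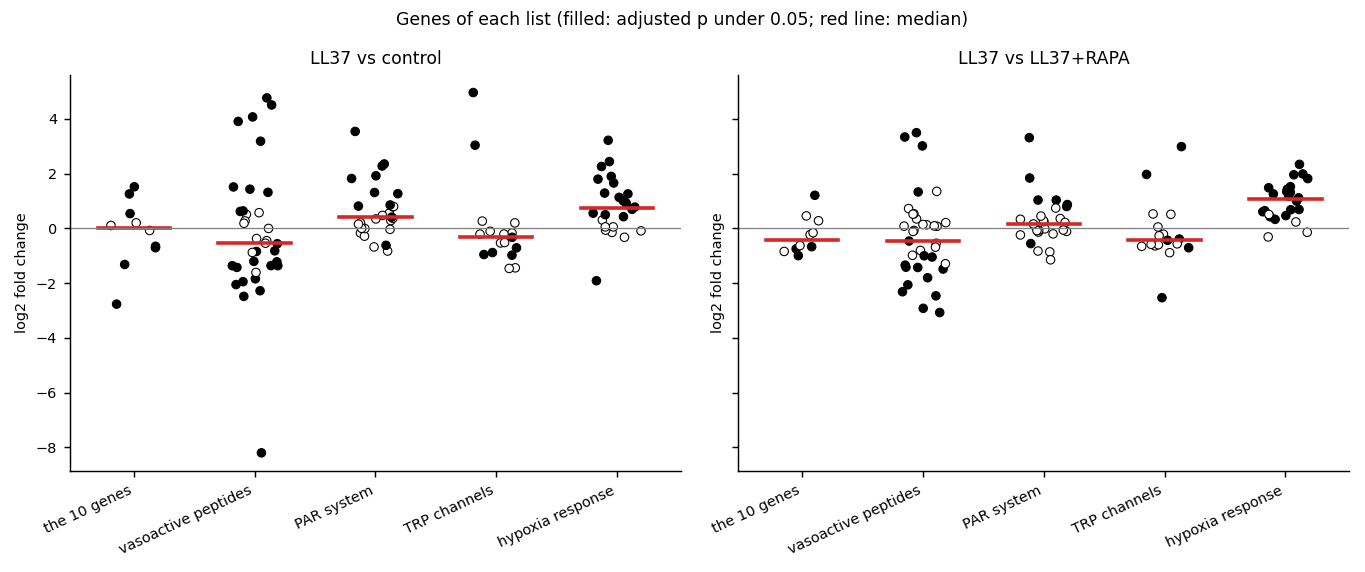
Each dot is the log2 fold change of a gene in LL37 against control (left) or LL37 against LL37+RAPA (right), filled where the adjusted p was under 0.05, with a red line at the median of each list. The hypoxia medians lie at 0.74 and 1.06, the vasoactive medians at -0.54 and -0.46, and the lowest dot is Nos1.

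Marker genes of the cells that carry these receptors moved to different degrees. The summed level of 16 blood endothelial genes was 481 to 606 CPM in control, 450 to 634 in LL37 and 648 to 724 in LL37+RAPA libraries, so control and LL37 overlapped. Of those 16, 2 were higher and 3 lower in LL37 against control, and none was higher and 5 lower against LL37+RAPA. Over all tested genes 21.0% were higher and 21.6% lower against control, and 11.8% and 12.4% against LL37+RAPA. The endothelial counts against control thus did not exceed those of all genes. Relative to this sum, Calcrl, Ramp2 and Edn1 were lower in every LL37 than in every control library, with log2 differences of -0.58, -0.65 and -1.28 (two-sided exact permutation test, p = 0.1 for each). Against LL37+RAPA the differences were -0.24 and -0.58 for Calcrl and Edn1, with overlap, and -0.34 for Ramp2, without. The overlap of Calcrl came from LL37 replicate 3 alone. Over the 32 ratios compared, of which 19 reached the smallest possible p, the smallest Benjamini-Hochberg adjusted p was 0.168.

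Other lists moved with the same genes. The 10 adipocyte genes, which were low in LL37 skin as Calcrl, Ramp2 and Edn1 were, summed to 3570 to 5650 CPM in control, 535 to 1180 in LL37 and 3840 to 3900 in LL37+RAPA libraries. Of the 10, 9 were lower in LL37 against control and 10 against LL37+RAPA, with none higher. Of all tested genes 21.6% and 12.4% were lower in these comparisons. The 8 Schwann cell genes summed to 449 to 574 CPM in control, 171 to 259 in LL37 and 308 to 520 in LL37+RAPA libraries, with 4 and 6 of the 8 lower. The 4 stress keratins, which injured epidermis makes, were high in LL37 skin, as Adm was. They summed to 1340 to 2720 CPM in control, 6800 to 11400 in LL37 and 2010 to 3160 in LL37+RAPA libraries. All 4 were called higher in both comparisons, where 21.0% and 11.8% of all tested genes were. In control+RAPA libraries they summed to 2170 to 2360 CPM, within the control range, although Adm was at 12.1 and 11.6 CPM in replicates 1 and 2. The part of adipocytes, Schwann cells and epidermis in the results for Calcrl, Ramp2, Edn1 and Adm was not tested.

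The 11 macrophage genes summed to 806 to 1390 CPM in control, 2200 to 2490 in LL37 and 1830 to 2960 in LL37+RAPA libraries. In LL37 against control 9 of the 11 were called higher, where 21.0% of all tested genes were. Relative to that sum Trpv2 differed by 0.20 on the log2 scale between LL37 and control, with overlap (two-sided exact permutation test, p = 0.6). The 10 neutrophil genes summed to 21.5 to 83.3 CPM in control and to 1760, 2440 and 256 CPM in LL37 replicates 1, 2 and 3. The 10 basal keratinocyte genes summed to 13700 to 18500 CPM in control and 22300 to 22800 in LL37 libraries. Most of the LL37 sum was Krt5 and Krt14, at means of 8040 and 9840 CPM. Of the 10, 5 were called higher and 2 lower in LL37 against control, where 21.0% and 21.6% of all tested genes were. The lower ones were Krt15 (2340 CPM in control, 1120 in LL37) and Dst (803 and 458 CPM). Relative to the basal keratinocyte sum Trpv4 differed by -0.43 on the log2 scale between LL37 and control skin. Its groups nearly touched, with the highest LL37 ratio at -9.091 and the lowest control ratio at -9.085. F2rl1 (-0.66) and Trpv3 (-0.40) overlapped. For F2rl1 and Trpv3 the overlap came from LL37 replicate 3 alone. The part of these cell types in the results was not tested.

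The pericyte and smooth muscle list, the cells in which Ednra is best known, summed to 3200 to 4210 CPM in control and 632 to 880 in LL37 libraries. Most of that sum in control was desmin (Des), at 2910 CPM in control and 119 CPM in LL37 skin, which skeletal muscle also carries. Of the 15 genes, 1 was higher and 6 lower in LL37 against control, where 21.0% and 21.6% of all tested genes were. The log2 ratio of Ednra to the sum exceeded that of control skin by 2.76 in LL37 skin, and by 0.77 with Des left out of the list, a step chosen after the values were seen (two-sided exact permutation test, p = 0.1 for each). The 8 sensory neuron markers summed to 23.8 to 28.1 CPM in control, 8.71 to 10.7 in LL37 and 8.2 to 9.16 in LL37+RAPA libraries. Most of the control sum came from Avil (13.3 CPM) and Isl1 (8.77 CPM), and both were lower in LL37 skin (log2 fold changes of -1.58, adjusted p = 3.75e-05, and -4.70, adjusted p = 3.56e-05), the only calls against control among the 4 tested markers. Pou4f1 was at 3.58 CPM in both groups. The sodium channel genes of these neurons were near the limit of detection: Scn10a and Scn11a had at most 3 reads in every control library, and Scn9a and Scn11a in every LL37 library.

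**Figure D5:**
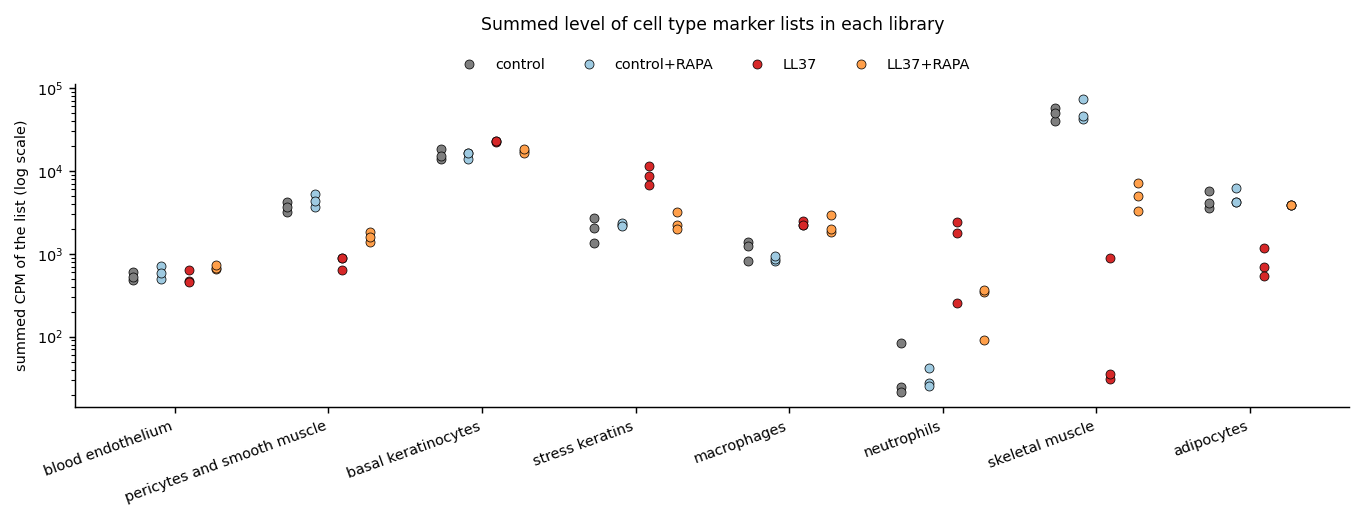
Dots give the summed CPM of each marker list in each library on a log axis, coloured by group. Blood endothelium lies between 450 and 724 CPM in all 12 libraries, while skeletal muscle runs from 30.5 CPM in LL37 replicate 1 to 74100 CPM in control+RAPA replicate 1.

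Over the 12 libraries, the genes whose log2 CPM followed each of the 10 most closely are given as a description, since all points share their libraries and the 4 groups. Ramp1 followed Bin1 (Pearson r = 0.992), Ank1 (0.991) and Atp6v0e2 (0.990), of which Bin1 and Ank1 are well known in muscle. Trpv2 followed the leukocyte genes Pirb (0.988), Ptpn6 (0.988) and Arhgap9 (0.987). Calcrl followed the water channel Aqp1 of small vessels (0.955), C1qtnf1 (0.952) and Mfng (0.942), and its correlation with Ramp2 was 0.915. Edn1 followed Decr1 (0.964), Paqr6 (0.962) and Ech1 (0.957), of which Decr1 and Ech1 encode enzymes of fatty acid oxidation. Ramp2 followed Cdc42bpa (0.966), Gstt1 (0.961) and Rwdd3 (0.957), and Ednra followed Sri (0.962), Col8a1 (0.960) and Hmga2 (0.960).

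Lower correlations were found for the others. F2rl1 followed Mapk3 (0.953) and Wls (0.940), and Trpv3 followed the growth factor Ereg (0.927), Cdc14b (0.915) and the desmosomal cadherin Dsc1 (0.914). Adm followed Npepps (0.887), Cemip (0.884) and Chd7 (0.878), and Trpv4 followed Lox (0.871), Vegfc (0.856) and Mdk (0.850). Among the 10 genes themselves, Ramp1 and Trpv2 ran opposite (r = -0.897), as did Edn1 and Trpv2 (-0.849) and Ednra and Ramp1 (-0.804), while Edn1 and Ramp1 ran together (0.818).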

How the data were processed

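RNA of whole skin was made into libraries with the Illumina TruSeq RNA kit and sequenced as 100-bp paired reads. The deposited table holds raw read counts per gene, made by the authors without normalization and without pooling replicates. The study's methods name HTSeq 0.6.0 for assigning reads to genes, while the submitters' processing notes list HISAT2 2.0.5, StringTie 1.3.3b, featureCounts 1.5.0-p3 and DESeq2 1.16.1 with mm10. Strand handling is not given in the sources used here, and antisense and overlapping genes may share reads.

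Gene symbols, positions and exon lengths came from GENCODE M21 (GRCm38, the same build), which named 52489 of 52636 genes. Counts were tested with edgeR 4.0.16 in R 4.3.3 (TMM scaling, filterByExpr, quasi-likelihood F-test, all 12 libraries in a model of 4 group means), with Benjamini-Hochberg adjustment over 17993 genes. A gene was called at an adjusted p under 0.05. The SE was the absolute log2 fold change divided by the square root of F, and intervals are 95%. Ratios and shares were compared by two-sided exact permutation tests. Samples were grouped by their titles. The test was also run on simulated counts with a uniform spread and few changed genes. That setting is simpler than these data, so no conclusion is drawn from it here. Alternatives were other scalings and filters, DESeq2 1.42.0, fits of the compared groups only, a block for the replicate number, and leaving out every library in turn.

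The genes, lists and tests were chosen with earlier results of these data known. The genes named beyond the 10 were, in each pathway list, the 5 with the largest absolute log2 fold change among those called in LL37 vs control and, separately, in LL37 against LL37+RAPA, the 3 genes nearest to each of the 10 by Pearson r of log2 CPM, and markers at or under 3 reads. Some genes that this rule names are not reported here. Ramp3, Ednrb, Calca, Vip, Adcyap1, Trpv1 and Trpa1 were named outside this rule, as close relatives or ligands of the 10. Calcb, Des, Avil, Isl1, Pou4f1, Ldha, Hk2, Pdk1 and Ddit4 were named after their values were seen. Counting error only is covered by the limit that 3 reads set.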

Additional observations from a re-analysis of the deposited data

Results flagged for a closer look

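The LL37 change of Adm differed between mice without and with RAPA. It was 1.52 on the log2 scale in LL37 against control and -0.68 (adjusted p = 0.225) in LL37+RAPA against control+RAPA, and the difference, 2.20, passed the interaction test of edgeR (adjusted p = 0.0412). In CPM the means were 4.87 ± 1.55 in control, 14.0 ± 3.76 in LL37, 9.70 ± 3.78 in control+RAPA and 6.03 ± 1.95 in LL37+RAPA skin (SD, n = 3 each). Part of the difference lay in the control+RAPA libraries, of which 2 were at 12.1 and 11.6 CPM and the other at 5.35 CPM. The adjusted p ran from 0.000976 (DESeq2) to 0.111 (without LL37+RAPA replicate 1) over 19 alternatives.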

How the results depend on the processing

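Of the 1190 values of log2 fold changes of the 10 genes under alternatives, 1126 kept their direction and their side of the threshold.
In LL37 against control 7 of the 10 were called in every other scaling, filter and tool, 4 with the fold limit, and 6 to 8 with a library left out. In LL37 against LL37+RAPA (4 called) the count was 7 with DESeq2 or an unadjusted p, 1 with the fold limit, and 1 to 7 with a library left out. Of all 17993 genes there, DESeq2 called 2623 higher and 2543 lower, 6838 had an unadjusted p under 0.05, and 10.1% passed the fold limit. In LL37+RAPA against control (3 called) it was 1 with the fold limit and 5 unadjusted. There 4930 of all genes passed unadjusted, and the share of all genes past the fold limit was not counted. In control+RAPA against control it was 1 unadjusted, where 1556 of all 17993 genes passed, so this count is not a trait of the 10. For the interaction (1 called) it was 2 with library size only or with the filter of 1 count in total, 3 with DESeq2, 4 unadjusted, and 0 to 3 with a library left out. Unadjusted, 4049 of all genes passed the interaction test, and DESeq2 called 1745. Left-out libraries moved the calls in LL37 against LL37+RAPA to 10 to 22 in the vasoactive list, 3 to 10 in the PAR list and 1 to 7 in the TRP list. Calls over all genes moved as well, from 896 up and 1193 down without LL37 replicate 1 to 3200 and 3208 without LL37 replicate 3. The causes were not tested.

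Directions turned only for changes that were not called. With library size only, F2rl1 in LL37 against control was 0.023, Trpv3 in LL37+RAPA against control 0.047, and Calcrl and Ramp2 in LL37+RAPA against control+RAPA 0.13 and 0.025. With a library left out, F2rl1 ran from -0.42 to 0.12 and Trpv3 from -0.0026 to 0.49 in LL37 against control. In LL37+RAPA against control Calcrl ran from -0.10 to 0.17 and Ramp2 from -0.10 to 0.15, and Calcrl against control+RAPA from -0.15 to 0.051. In control+RAPA against control Calcrl ran from -0.058 to 0.22, Edn1 from -0.15 to 0.017, Ednra from -0.16 to 0.046 and Trpv4 from -0.043 to 0.18. The interaction ran from -0.072 to 0.23 for Trpv2 and from -0.21 to 0.017 for Trpv4, and the log2 ratio of Trpv3 to basal keratinocytes in LL37 against LL37+RAPA from -0.39 to 0.13.

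Replicate numbers showed no clear pairing of the libraries, though deviations from means of 3 libraries cannot exclude it. Of 18 same-numbered pairs 4 had a correlation of deviations over 0.1 (range -0.188 to 0.263). Differently numbered pairs ran from -0.303 to 0.277, and 5 of 12 libraries matched their own number best. With the number as a block, 7 of the 10 were again called in LL37 against control, Adm gave 1.18 (adjusted p = 0.0509) in LL37 against LL37+RAPA, and the interaction gave 0 calls.

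Over all genes, LL37 against LL37+RAPA called 4359 genes, and 2463 when only those groups were fitted and 2089 without LL37 replicate 1. The interaction called 590 (203 higher, 387 lower), 1745 with DESeq2, 1061 with 1 count in total, 230 with the block, and 138 higher and 518 lower with library size only, where the median of all genes was -0.108. LL37+RAPA against control called 2527 genes, and 1373 without LL37+RAPA replicate 2. Each of the 10 genes had 43 reads or more per library, while genes at 3 reads or fewer, 0.123 to 0.184 CPM, could not be told from 0.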
